A study of Mus musculus with 12 samples.

Results

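Mast cells carry receptors for several small molecules that accumulate in inflamed tissue, and 9 of these receptor genes are described here in bone marrow-derived mast cells (BMMCs). They were the adenosine receptors *Adora2a*, *Adora2b* and *Adora3*, the prostaglandin E2 receptors *Ptger3* and *Ptger4*, the sphingosine-1-phosphate (S1P) receptors *S1pr1* and *S1pr2*, and the ATP-gated channels *P2rx4* and *P2rx7*. They were taken by symbol from the 16234 genes of the count table, and all 9 were present. After a filter on low counts, 12208 genes were tested, among them the 9 receptors. *S1pr1* passed that filter with only 5 to 34 counts per library.

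Adenosine, prostaglandin E2 and S1P act on seven-transmembrane receptors coupled to heterotrimeric G proteins, which raise or lower cyclic AMP, release calcium or move the cytoskeleton, depending on the G protein. Extracellular ATP acts directly on P2X receptors, trimeric channels that pass cations when ATP binds. In mast cells, A3, EP3 and P2X receptors are known as amplifiers of signals from the IgE receptor FcϵRI, and receptors that raise cyclic AMP, such as EP4, are known as brakes on degranulation.

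The cells came from bone marrow of mice that lacked *Elk4* on both alleles (KO) or 1 allele (HZ) and of wild-type (WT) littermates. The knockout was a conventional one on a C57BL/6N background, and donors were of both sexes and 6 to 12 weeks old. *Elk4* encodes a transcription factor of the ETS family that works with serum response factor. All cultures were kept in IL-3 and SCF, each at 10 ng/ml, for 4 to 8 weeks, after which more than 80% of cells stained for both CD117 and FcϵRI. Stimulated cells were loaded overnight with 0.5 µg/ml anti-DNP IgE and received 100 ng/ml DNP-HSA, the antigen that crosslinks this IgE, for 1 h. The labels give the same protocol for untreated cells, so whether these also carried IgE is not given. The 3 genotypes in the unstimulated and stimulated state form 6 groups of 2 libraries, 12 in all. Nothing says whether the 2 libraries of a group came from separate mice or cultures, so the p-values measure only the spread between these libraries.

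Total counts on genes lay between 29697958 and 35531667 per library. The 2 libraries of a group were close, with a biological coefficient of variation of 4.01%. The targeted gene did not follow the labels. *Elk4* was at 69.7 and 63.5 CPM (normalised counts, scaled to library size with TMM factors) in the unstimulated libraries labelled KO, at 73.2 and 78.3 CPM in those labelled WT and at 93.2 and 86.0 CPM in those labelled HZ. Stimulated libraries had 78.2 and 67.0 CPM in WT, 65.2 and 63.7 CPM in HZ and 67.1 and 68.5 CPM in KO. The paper reports the deletion at the protein level, by western blotting of WT, HZ and KO BMMCs. The part of the gene that was deleted is not given in the sources used here, so counts over the whole gene do not test the deletion. WT, HZ and KO below therefore name the labels of the libraries. All 11 mast cell markers in the table were above 1 CPM in every group, among them *Cpa3* and *Cma1*, which encode proteases of mast cell granules. Of 10 macrophage and monocyte markers, 7 or 8 were under 1 CPM in both libraries of every group, among them *Csf1r*, *C1qa* and *Mrc1*. The summed level of these 10 markers was 6.73 to 9.97 CPM in the libraries labelled WT. In those labelled HZ or KO it was 32.6 to 72.9 CPM, mostly from *F13a1*. That gene was under 1 CPM in both stimulated WT libraries. This summed level moved with the genotype labels, and its part in the genotype differences given below was not tested. The summed markers of neutrophils, of B and T cells, of erythroid cells and of dendritic cells were each under 1 CPM in every library, and those of eosinophils between 0.0846 and 3.57 CPM. Basophil markers summed to 527 to 753 CPM and megakaryocyte markers to 1511 to 2421 CPM, and both lists hold genes that mast cells also express. In each list the unstimulated HZ libraries stood apart, at 747 to 753 CPM against 527 to 672 CPM in all other libraries for basophil markers and at 2414 to 2421 CPM against 1511 to 1767 CPM for megakaryocyte markers, and the part of this in the HZ differences given below was not tested. Of the 3 megakaryocyte markers counted, *Pf4* and *Gp1bb* were under 1 CPM in both libraries of every group. The megakaryocyte sum, and its higher level in unstimulated HZ, therefore came almost wholly from the remaining gene. In such bulk samples, fewer cells of a type and less RNA per cell cannot be told apart.

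The DNA before the transcription start is shown for 4 receptors whose mRNA differed clearly with antigen (*Adora3*, *Adora2b*, *S1pr2*) or with genotype at rest (*P2rx7*). RefSeq promoters (mouse GRCm38.p6) were matched for 7 of the 9 genes, all but *Adora2a* and *S1pr1*. Each run below holds the 250 bases before the start, written 5′ to 3′ on the strand of the gene. Capitals mark a cyclic AMP response element (CRE, TGACGTCA), an AP-1 element (TGANTCA) or an ETS core (CCGGAA). *Adora3* lies at chr3:105904171-105904420 on the plus strand, *Adora2b* at chr11:62248734-62248983 on the plus strand, *S1pr2* at chr9:20976794-20977043 on the minus strand and *P2rx7* at chr5:122643677-122643926 on the plus strand.
Adora3: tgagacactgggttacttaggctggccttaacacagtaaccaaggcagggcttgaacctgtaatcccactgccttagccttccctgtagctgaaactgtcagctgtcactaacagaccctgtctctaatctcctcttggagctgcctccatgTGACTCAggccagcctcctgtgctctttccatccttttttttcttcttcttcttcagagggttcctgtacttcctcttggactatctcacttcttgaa
Adora2b: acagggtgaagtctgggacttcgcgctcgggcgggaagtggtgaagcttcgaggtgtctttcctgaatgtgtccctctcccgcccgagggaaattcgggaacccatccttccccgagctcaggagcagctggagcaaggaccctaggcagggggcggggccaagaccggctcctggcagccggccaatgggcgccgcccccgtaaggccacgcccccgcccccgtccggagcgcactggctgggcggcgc
S1pr2: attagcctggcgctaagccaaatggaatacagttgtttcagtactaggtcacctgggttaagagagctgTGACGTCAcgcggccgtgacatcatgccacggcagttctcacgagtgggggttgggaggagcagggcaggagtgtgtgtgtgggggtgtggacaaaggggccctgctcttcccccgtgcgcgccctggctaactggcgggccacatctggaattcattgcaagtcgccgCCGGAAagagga
P2rx7: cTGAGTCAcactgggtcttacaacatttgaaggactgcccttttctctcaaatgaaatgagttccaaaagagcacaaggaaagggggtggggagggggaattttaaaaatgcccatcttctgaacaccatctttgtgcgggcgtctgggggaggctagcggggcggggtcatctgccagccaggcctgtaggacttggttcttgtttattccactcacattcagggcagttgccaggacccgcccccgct

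Both strands were searched. The *S1pr2* window held the full CRE 181 bases before the start and the ETS core 12 bases before it, a motif read by the family of factors to which ELK4 belongs. The ETS core of *S1pr2* overlaps a GGAAA match by 4 bases. The *Adora3* window held an AP-1 element 98 bases before the start. The first of 2 listed starts of *P2rx7* held one 249 bases before it, and the second start held none. The *Adora2b* window held none of these 3 motifs. Among all 32851 promoters of the table, 1.55% held the full CRE in this window, 6.75% the AP-1 element and 12% the ETS core. The CRE core TGACG, which the full CRE contains, was in 17.8% of promoters and, among the receptors, in those of *S1pr2* and *P2rx4*. The NFAT core GGAAA was in 55.6% of promoters, including those of *Adora2b*, *Adora3*, *Ptger4*, *S1pr2* and the first start of *P2rx7*. The CArG box read by serum response factor (1.47% of promoters) and the NF-kB motif (5.00%) were in none of the 7 receptors' windows. These are matches of letters, and no binding was measured.

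Levels of different genes can be compared only per transcript length, for which the deposited FPKM values (reads scaled to the length of the gene and the size of the library) were used. Among the receptors *P2rx4* was the most abundant at rest in every genotype, with a mean of 158 FPKM in WT, 160.4 in HZ and 165 in KO. In unstimulated WT cells it was followed by *P2rx7* at 83.6 FPKM, *Ptger3* at 66.9, *Adora3* at 57.5, *Adora2b* at 52.0 and *Adora2a* at 43.0. *Ptger4* followed at 23.2 FPKM, *S1pr2* at 5.91 and *S1pr1* at 0.165. *Ptger3* stood above *P2rx7* in unstimulated HZ and KO cells, the reverse of WT. After antigen, *Adora3* led in WT with 130.3 FPKM and in HZ with 124 FPKM, whereas *P2rx4* still led in KO with 131 FPKM against 116 for *Adora3*. *Adora2a* passed *Adora2b* in stimulated KO cells, with 93.8 against 88.9 FPKM, and stood below it in stimulated WT cells, with 63.7 against 101 FPKM. Neighbours in these orders did not overlap between their 2 libraries, except *Adora2b* and *Adora2a* in unstimulated KO cells. *Ptger4*, *S1pr2* and *S1pr1* kept the last 3 places in all 6 groups.

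**Figure D1:**
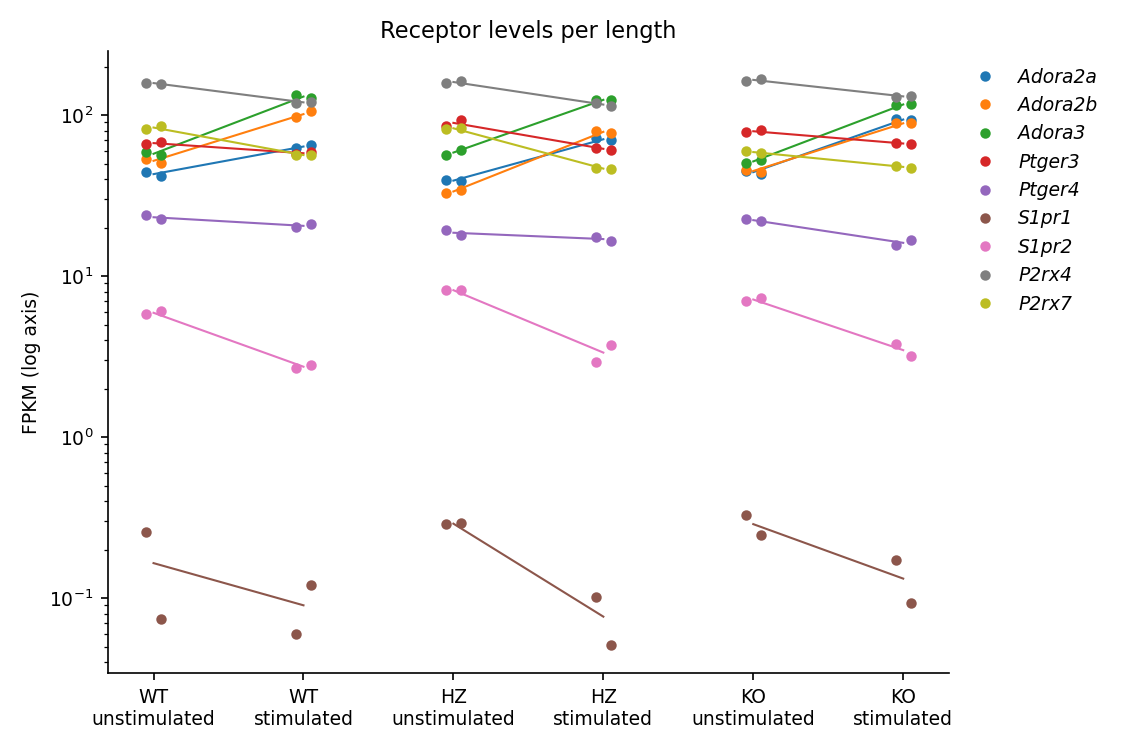
Level of each receptor per transcript length (FPKM, log axis) in the 6 groups, with a point for each library and lines joining the means of the unstimulated and stimulated group of a genotype. *P2rx4* is at the top in all 3 unstimulated groups, *Adora3* in stimulated WT and HZ cells, and *S1pr1* is at the bottom throughout.

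The first question was how antigen changed the receptors in each genotype. The 3 adenosine receptors rose in all 3 genotypes, *S1pr2* fell in all 3, and the prostaglandin and P2X receptors moved by less than 2-fold. Genes were counted as changed by antigen at a Benjamini-Hochberg adjusted p below 0.05 in edgeR's quasi-likelihood test and at least 2-fold. By this rule 2 of the 9 receptors changed in WT (*Adora2b* and *Adora3*, both higher), where 6.77% of all genes tested did. In HZ 5 of 9 changed, against 14.3% of all genes, with *Adora2a*, *Adora2b* and *Adora3* higher and *S1pr1* and *S1pr2* lower. Of the 9 receptors, 3 changed in KO, all of them adenosine receptors and higher, against 6.61% of all genes. By the adjusted p alone, 7 receptors passed in WT, 8 in HZ and 5 in KO, beside 45.3%, 64.4% and 40.8% of all genes tested. The median log2 fold change over the 9 receptors was 0.099 in WT, -0.23 in HZ and -0.017 in KO, beside -0.013, -0.0048 and -0.0068 over all genes tested.

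These values use TMM scaling, which treats the bulk of genes as level. Scaling by library totals lowered every response by 0.31 in WT, 0.23 in HZ and 0.29 in KO on the log2 scale. On that scale 1 receptor rose 2-fold in WT (*Adora3*) and 1 fell (*S1pr2*), 2 rose and 2 fell in HZ, and 2 rose and 1 fell in KO. FPKM values carry the same scaling by library totals.

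Among the adenosine receptors, *Adora2a* encodes a high-affinity receptor that raises cyclic AMP through Gs. It was at 116 and 109.9 CPM unstimulated and 204 and 211 CPM stimulated in WT. In HZ it was at 107 and 106 CPM unstimulated and 229 and 224 CPM stimulated, and in KO at 121 and 115 CPM unstimulated and 309 and 304 CPM stimulated. Stimulated and unstimulated libraries did not overlap in any genotype, the unstimulated levels were close to one another, and the stimulated level was highest in KO. *Adora2a* rose by a log2 fold change of 0.88 ± 0.039 (SE) in WT (edgeR adjusted p = 1.43e-24), or 1.84-fold. Its rise was 1.08 ± 0.039 in HZ (edgeR adjusted p = 1.89e-28) and 1.37 ± 0.038 in KO (edgeR adjusted p = 6.29e-33), or 2.12-fold and 2.59-fold.

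*Adora2b* encodes the A2B receptor, which has low affinity for adenosine and couples to Gs and Gq. WT cells held 88.3 and 83.1 CPM unstimulated and 199 and 215 CPM stimulated. The levels in HZ were 55.7 and 58.7 CPM unstimulated and 159 and 157 CPM stimulated, and those in KO 76.2 and 74.2 CPM unstimulated and 182 and 182 CPM stimulated. The gene was lowest in HZ in either state and highest in WT. It rose 2.41-fold in WT (log2 1.27 ± 0.044, edgeR adjusted p = 9.09e-29), 2.76-fold in HZ (log2 1.46 ± 0.046, edgeR adjusted p = 1.41e-30) and 2.42-fold in KO (log2 1.27 ± 0.045, edgeR adjusted p = 1.34e-28). *Adora3*, whose A3 receptor couples to Gi and potentiates mast cell degranulation in mice, was at 125 and 119 CPM unstimulated and 347 and 336 CPM stimulated in WT. For HZ the values were 123 and 133 CPM unstimulated and 321 and 319.9 CPM stimulated, and for KO 108 and 114 CPM unstimulated and 305 and 307 CPM stimulated. The rise of *Adora3* was 2.81-fold in WT (log2 1.49 ± 0.038, edgeR adjusted p = 2.48e-34), 2.5-fold in HZ (log2 1.32 ± 0.038, edgeR adjusted p = 2.86e-32) and 2.76-fold in KO (log2 1.46 ± 0.038, edgeR adjusted p = 6.03e-34). In RefSeq (GRCm38.p6) *Adora3* lies within the span of *Tmigd3*, which was counted as a gene of its own at group means of 2.90 to 6.39 CPM. The strand setting of the counting is not stated.

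**Figure D2:**
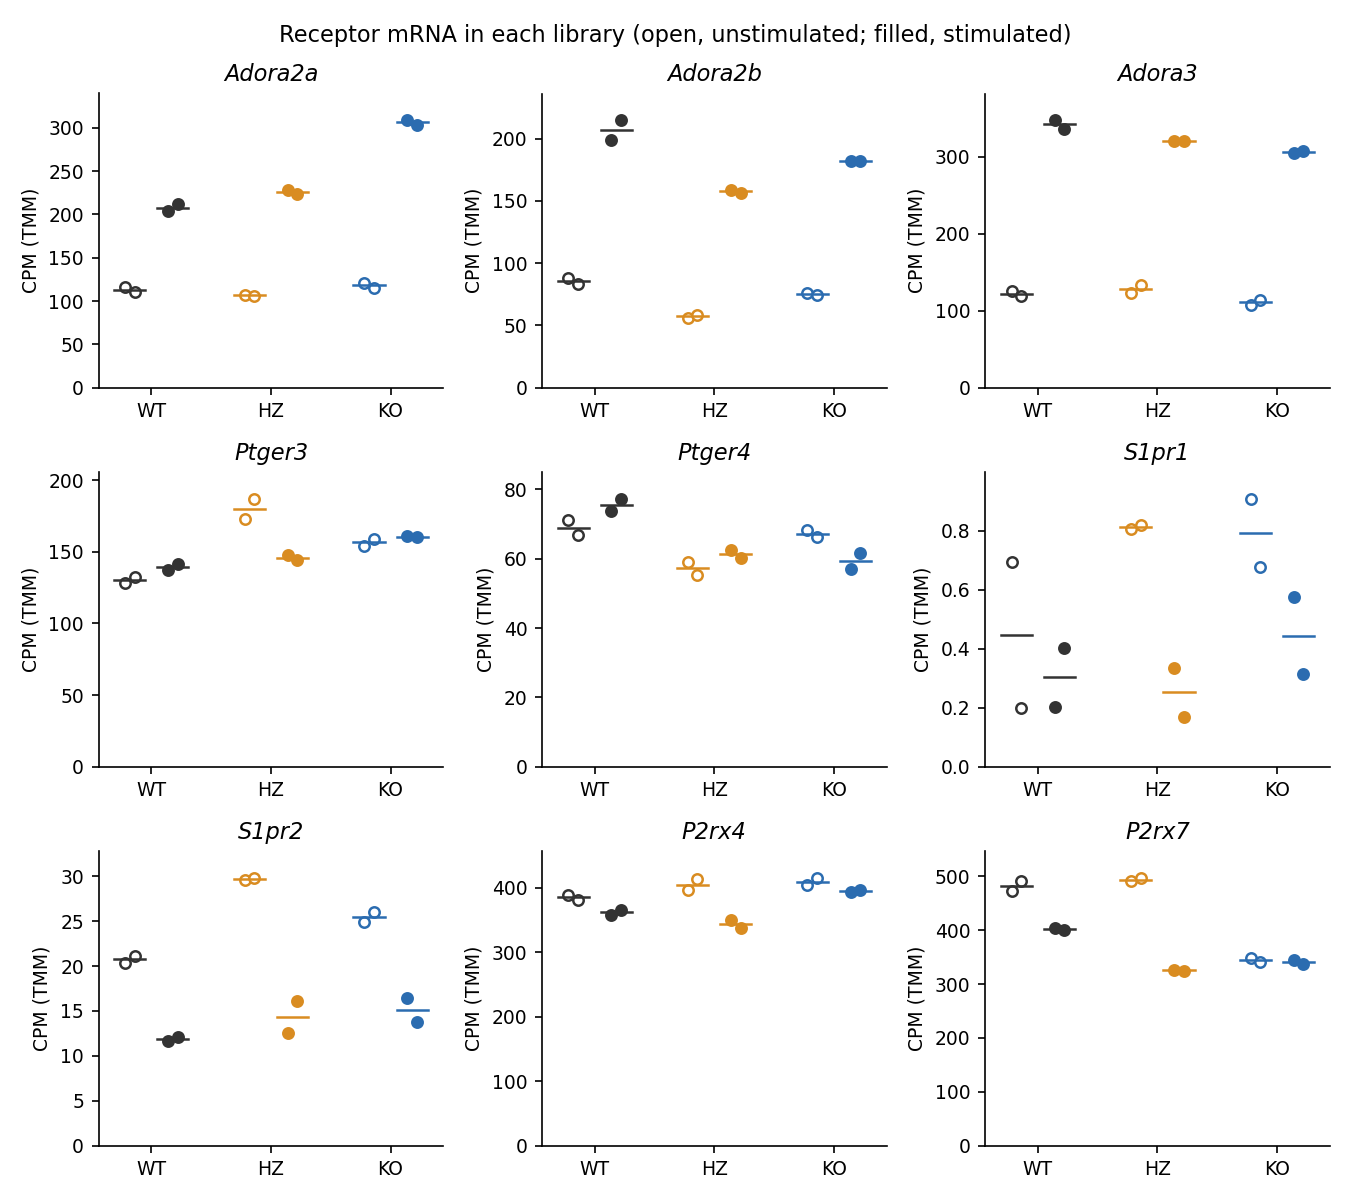
Normalised counts (CPM, TMM scaling) of the 9 receptors in each library by genotype label, with open points for unstimulated and filled points for stimulated libraries and a bar at the mean of 2 libraries. The 3 adenosine receptors are higher in all stimulated libraries, and *P2rx7* lies between 337 and 349 CPM in the 4 libraries labelled KO.

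The prostaglandin E2 receptors responded little. *Ptger3* encodes EP3, a Gi-coupled receptor through which prostaglandin E2 activates mast cells, and *Ptger4* encodes EP4, which raises cyclic AMP. *Ptger3* was at 128 and 132 CPM unstimulated and 137 and 142 CPM stimulated in WT, at 173 and 187 CPM unstimulated and 147 and 144 CPM stimulated in HZ and at 154 and 159 CPM unstimulated and 161 and 160.2 CPM stimulated in KO. HZ was the genotype with the highest level at rest and the one with a clear fall, at log2 -0.30 ± 0.040 (edgeR adjusted p = 7.69e-09). The *Ptger3* response was 0.099 ± 0.041 in WT (edgeR adjusted p = 0.0448) and 0.036 ± 0.040 in KO (edgeR adjusted p = 0.518), and both turned negative with library totals, to -0.21 and -0.25. The *Ptger3* call in WT was also lost without unstimulated replicate 1 (adjusted p = 0.243) and without either stimulated replicate (adjusted p = 0.0503 and 0.264). *Ptger4* was at 71.0 and 66.9 CPM unstimulated and 73.9 and 77.2 CPM stimulated in WT, at 59.1 and 55.3 CPM unstimulated and 62.6 and 60.1 CPM stimulated in HZ and at 68.2 and 66.1 CPM unstimulated and 57.1 and 61.6 CPM stimulated in KO. Stimulated libraries lay above unstimulated ones in WT and HZ and below them in KO. The *Ptger4* response was 0.13 ± 0.056 in WT (edgeR adjusted p = 0.0519) and 0.10 ± 0.057 in HZ (edgeR adjusted p = 0.12), which became -0.18 and -0.13 with library totals. In KO it was -0.18 ± 0.057 (edgeR adjusted p = 0.00976) and -0.47 with library totals. The *Ptger4* call in KO was lost without unstimulated replicate 1 (adjusted p = 0.0837) or stimulated replicate 1 (adjusted p = 0.18), and the WT value passed without unstimulated replicate 1 (adjusted p = 0.0397).

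Of the S1P receptors, *S1pr2* encodes a receptor coupled to G12/13, Gi and Gq that takes part in mast cell degranulation, and *S1pr1* encodes the Gi-coupled receptor that steers migration toward S1P. *S1pr2* was at 20.3 and 21.2 CPM unstimulated and 11.6 and 12.2 CPM stimulated in WT, at 29.6 and 29.8 CPM unstimulated and 12.5 and 16.1 CPM stimulated in HZ and at 24.9 and 26.1 CPM unstimulated and 16.4 and 13.8 CPM stimulated in KO. Every stimulated library was below every unstimulated one. The *S1pr2* response was log2 -0.80 ± 0.11 in WT (edgeR adjusted p = 2.08e-08), -1.06 ± 0.10 in HZ (edgeR adjusted p = 1.43e-12) and -0.76 ± 0.10 in KO (edgeR adjusted p = 3.93e-08). It reached 2-fold in HZ, but not without HZ stimulated replicate 1, when *S1pr1* was the receptor still counted as lower. *S1pr1* had 23 and 7 counts in the unstimulated WT libraries and 6 and 12 after antigen. In HZ libraries the counts went from 28 and 27 to 11 and 5, and in KO libraries from 34 and 24 to 16 and 9. These are so few counts that the intervals are wide. Its log2 fold change was -1.66 ± 0.68 in HZ (edgeR adjusted p = 0.0313, 95% confidence interval -3.03 to -0.28), -0.55 ± 0.71 in WT (edgeR adjusted p = 0.566, -1.98 to 0.89) and -0.83 ± 0.64 in KO (edgeR adjusted p = 0.318, -2.12 to 0.46). Without HZ unstimulated replicate 1 or 2 or HZ stimulated replicate 2, the *S1pr1* call in HZ was lost (adjusted p = 0.0849, 0.0892 and 0.207).

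The P2X receptors were high in all libraries and changed by less than 2-fold. *P2rx7* encodes the P2X7 channel, which needs high ATP, forms large pores and activates mast cells. Its level was 473 and 491 CPM unstimulated and 405 and 401 CPM stimulated in WT. HZ libraries had 491 and 497 CPM unstimulated and 327 and 325 CPM stimulated, and KO libraries 349 and 341 CPM unstimulated and 344 and 337 CPM stimulated. Unstimulated WT and HZ libraries overlapped, stimulated HZ libraries lay below all KO libraries, and in KO the unstimulated and stimulated libraries overlapped. *P2rx7* fell by log2 0.26 ± 0.030 in WT (edgeR adjusted p = 3.44e-10) and fell by 0.60 ± 0.030 in HZ (edgeR adjusted p = 9.13e-23). In KO its log2 fold change was -0.017 ± 0.030 (edgeR adjusted p = 0.687), with an interval of -0.078 to 0.043, and -0.31 with library totals. *P2rx4*, which encodes the P2X4 channel found largely on lysosomes and known to amplify degranulation, was at 389 and 382 CPM unstimulated and 358 and 366 CPM stimulated in WT, at 396 and 413 CPM unstimulated and 350.3 and 338 CPM stimulated in HZ and at 404 and 415 CPM unstimulated and 394 and 396 CPM stimulated in KO. In HZ it fell by log2 0.23 ± 0.031 (edgeR adjusted p = 5.78e-09), and its values were -0.089 ± 0.031 in WT (edgeR adjusted p = 0.0152) and -0.051 ± 0.031 in KO (edgeR adjusted p = 0.186). The *P2rx4* call in WT was lost without unstimulated replicate 1 or 2 (adjusted p = 0.114 and 0.0537) or stimulated replicate 1 (adjusted p = 0.138). The genes of *P2rx4* and *P2rx7* are neighbours, and *P2rx4* overlaps *Camkk2* in RefSeq (GRCm38.p6), which was counted separately at group means of 78.3 to 93.8 CPM.

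**Figure D3:**
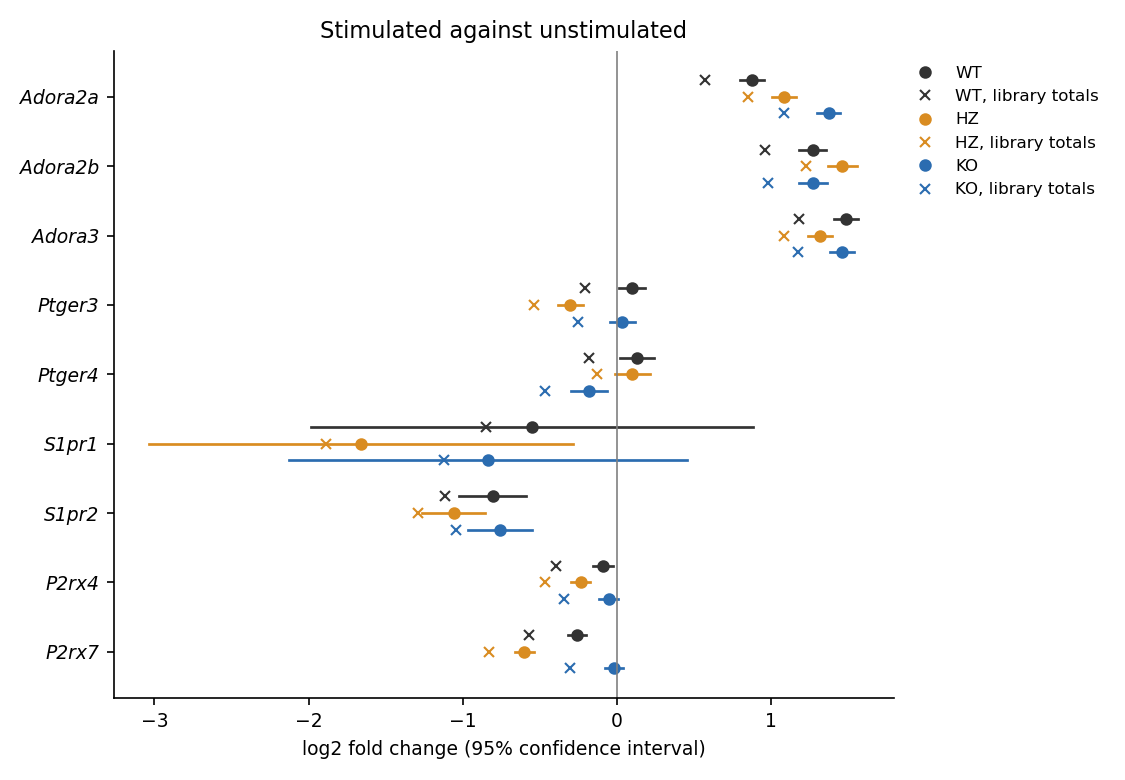
Log2 fold change of each receptor, stimulated against unstimulated, in the 3 genotypes, with bars for 95% confidence intervals from the edgeR fit and crosses for the same value with scaling by library totals. *Adora2a*, *Adora2b* and *Adora3* lie to the right of 0 in all genotypes under either scaling, *S1pr2* to the left, and *Ptger3* and *Ptger4* change side in part.

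The second question was how the genotypes differed in the same state. No receptor passed the adjusted p and the threshold of size together, and the clearest differences at rest were lower *P2rx7* in KO and lower *Adora2b* with higher *Ptger3* and *S1pr2* in HZ. At rest (adjusted p below 0.05 and at least 2-fold), 0 of 9 receptors differed between KO and WT, between HZ and WT or between KO and HZ, beside 7.51%, 9.15% and 3.36% of all genes. DESeq2 also gave 0 in each. By the adjusted p alone in edgeR, 6 receptors differed between KO and WT, 5 between HZ and WT and 6 between KO and HZ, beside 44.6%, 51.4% and 45.2% of all genes, and 6, 6 and 7 did at an unadjusted p below 0.05, beside 50.7%, 56% and 51.1% of all genes. *P2rx7* was lower in KO than in WT, at a log2 difference of -0.48 ± 0.030 (edgeR adjusted p = 6.66e-19) and lower than in HZ, at -0.52 ± 0.030 (edgeR adjusted p = 9.58e-20), and HZ differed from WT by 0.034 ± 0.029 (edgeR adjusted p = 0.344). *Adora2b* was lower in HZ than in WT, at -0.58 ± 0.048 (edgeR adjusted p = 1.11e-14), and lower in KO than in WT, at -0.19 ± 0.046 (edgeR adjusted p = 0.000766), so KO lay between. *Ptger3* was higher in HZ than in WT by 0.47 ± 0.040 (edgeR adjusted p = 6.94e-14) and in KO by 0.27 ± 0.040 (edgeR adjusted p = 3.27e-07). *S1pr2* was also higher in HZ, by 0.52 ± 0.098 (edgeR adjusted p = 1.73e-05), and in KO by 0.30 ± 0.099 (edgeR adjusted p = 0.0124). For *Ptger4* HZ was lower than WT, at -0.27 ± 0.057 (edgeR adjusted p = 7.73e-05), while KO against WT gave -0.037 ± 0.056 (edgeR adjusted p = 0.623).

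The calls of several smaller resting differences changed when 1 library was left out, which leaves its group with a single library. *S1pr2* in KO against WT lost its call without WT replicate 1 (adjusted p = 0.0826) or KO replicate 2 (0.0901), and in limma with a pseudocount of 0.1 (0.0684) or without a filter (0.105). *Adora3* was lower in KO than in WT, at -0.14 ± 0.040 (edgeR adjusted p = 0.00439), a call lost without replicate 1 of WT (adjusted p = 0.112) or of KO (0.118). In HZ against WT *Adora3* was at 0.075 ± 0.039 (edgeR adjusted p = 0.11) and *Adora2a* at -0.084 ± 0.040 (edgeR adjusted p = 0.075), and each passed in the absence of 1 library, *Adora3* without WT replicate 1 (adjusted p = 0.0499) or HZ replicate 1 (0.0137) and *Adora2a* without WT replicate 2 (0.0255). *P2rx4* was at 0.088 ± 0.030 in KO against WT (edgeR adjusted p = 0.0158) and at 0.072 ± 0.030 in HZ against WT (edgeR adjusted p = 0.0459). The first of these lost its call without WT replicate 2 (adjusted p = 0.103) or KO replicate 2 (0.158), and the second without WT replicate 1 (0.0595), WT replicate 2 (0.263) or HZ replicate 2 (0.441). With library totals neither passed (adjusted p = 0.0726 in KO and 0.574 in HZ), nor in any of 3 limma settings (adjusted p = 0.091 to 0.109 in KO and 0.56 to 0.609 in HZ), and *P2rx4* in HZ also did not pass without a filter on low counts (0.0541) and with only the compared groups (0.093). Between KO and HZ, *Adora2b* was higher in KO by 0.40 ± 0.048, *Ptger4* by 0.23 ± 0.056 and *Adora2a* by 0.15 ± 0.040, and *Adora3* was lower, at -0.21 ± 0.039 and *Ptger3* at -0.20 ± 0.040. Their edgeR adjusted p-values were 1.85e-09, 0.00062, 0.00184, 1.75e-05 and 4.4e-05, and that of *Adora2a* rose to 0.0552 without KO replicate 1. *S1pr1* passed in no comparison of genotypes.

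After antigen the clearest difference was *Adora2a*, which was 1.47-fold as high in KO as in WT. For stimulated cells a fold of at least 1.5 or at most 0.66 was required besides the adjusted p, and 0 of 9 receptors passed in KO against WT, HZ against WT or KO against HZ, beside 12.7%, 7.89% and 5.32% of all genes. DESeq2 also gave 0 in each. By the adjusted p alone in edgeR, 8, 5 and 4 receptors passed, beside 40.4%, 34.9% and 24.9% of all genes, and 8, 7 and 5 did at an unadjusted p below 0.05, beside 46.9%, 43% and 34.4% of all genes. *S1pr1*, at few counts, was 1.73-fold as high in KO as in HZ without passing (edgeR adjusted p = 0.497). *Adora2a* was higher in KO than in WT by log2 0.56 ± 0.037 (edgeR adjusted p = 1.46e-17), just under the fold required, and it passed as the only receptor without WT stimulated replicate 2. It was higher in KO than in HZ by 0.44 ± 0.037 (edgeR adjusted p = 1.94e-13), and in HZ than in WT by 0.12 ± 0.037 (edgeR adjusted p = 0.00769). The last of these lost its call without WT replicate 1 (adjusted p = 0.118) or HZ replicate 1 (0.0701). *Ptger4* was lower than in WT in KO, at -0.35 ± 0.057 (edgeR adjusted p = 2.15e-06) and in HZ at -0.30 ± 0.057 (edgeR adjusted p = 3.19e-05). *P2rx7* was lower than in WT in KO, at -0.24 ± 0.030 (edgeR adjusted p = 3.57e-09) and in HZ at -0.31 ± 0.030 (edgeR adjusted p = 7.85e-12).

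*Adora2b* remained lower than in WT after antigen, at -0.39 ± 0.043 in HZ (edgeR adjusted p = 1.69e-10) and at -0.19 ± 0.042 in KO (edgeR adjusted p = 0.00034), the latter with an adjusted p of 0.0524 without WT replicate 2. *Adora3* was lower in KO than in WT, at -0.16 ± 0.036 (edgeR adjusted p = 0.000322). In HZ against WT it was at -0.094 ± 0.036 (edgeR adjusted p = 0.0372), and leaving out any of these 4 libraries ended that call (adjusted p = 0.0532 to 0.274), as did library totals (0.144) and limma (0.217 to 0.313). *Ptger3* was higher in KO than in WT by 0.20 ± 0.041 (edgeR adjusted p = 6.5e-05), and so was *P2rx4*, by 0.13 ± 0.031 (edgeR adjusted p = 0.000831). *S1pr2* was at 0.34 ± 0.11 in KO against WT (edgeR adjusted p = 0.0122), and lost its call without WT replicate 1 (adjusted p = 0.0837) or KO replicate 1 (0.238), and in limma without a filter (0.0933). In HZ against WT *S1pr2* was at 0.26 ± 0.11 (edgeR adjusted p = 0.0663) and passed without HZ replicate 1 (adjusted p = 0.00637). Between KO and HZ, *Adora2b* was higher in KO by 0.21 ± 0.043 (edgeR adjusted p = 0.000197), *P2rx4* by 0.20 ± 0.031 (edgeR adjusted p = 1.41e-06) and *Ptger3* by 0.14 ± 0.041 (edgeR adjusted p = 0.00838), and leaving out 1 library ended the call of *Ptger3* in 3 of 4 cases (adjusted p = 0.0518 to 0.0938, without HZ replicate 2, KO replicate 1 or KO replicate 2), as did limma (adjusted p = 0.0604 to 0.108).

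**Figure D4:**
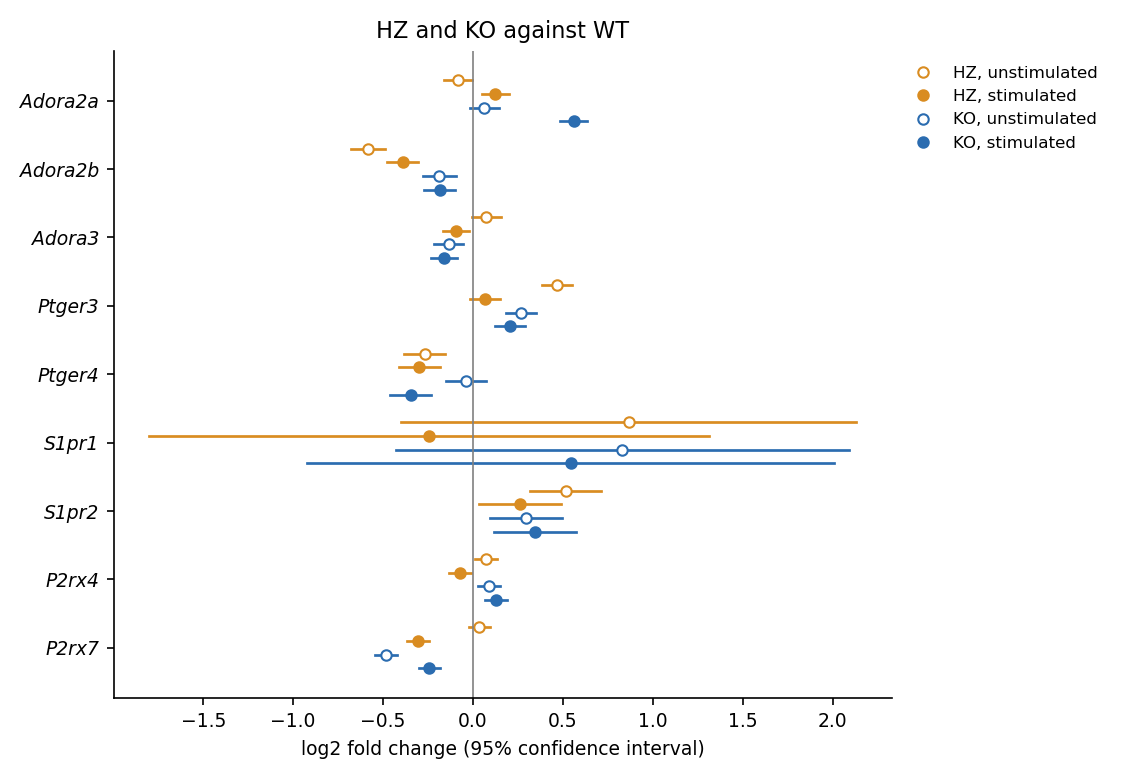
Log2 fold change of each receptor in HZ and KO against WT, unstimulated (open) and stimulated (filled), with bars for 95% confidence intervals from the edgeR fit. *Adora2a* stands farthest to the right in stimulated KO cells, *P2rx7* to the left in KO in both states and in stimulated HZ cells, and the bars of *S1pr1* are the widest.

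The third question was whether the response to antigen itself differed between genotypes, which was tested as an interaction in the same model. *Adora2a* responded more strongly and *P2rx7* fell less in KO than in WT, and the *Ptger4* response was lower in KO than in WT. These 3 of 9 receptors passed for KO against WT, beside 9.27% of all genes, and 6 of 9 passed for HZ against WT, beside 38.5% of all genes. The *Adora2a* response was larger in KO than in WT by log2 0.50 ± 0.054 (edgeR adjusted p = 1.12e-09) and larger in HZ by 0.21 ± 0.055 (edgeR adjusted p = 0.00187). Those of *Adora2b* and *Adora3* differed between KO and WT by 0.00098 ± 0.062 and -0.025 ± 0.054 (edgeR adjusted p = 0.998 and 0.852), with intervals of -0.12 to 0.13 and -0.13 to 0.083. *P2rx7* differed in opposite directions, at 0.24 ± 0.042 in KO (edgeR adjusted p = 4.36e-05) and at -0.34 ± 0.042 in HZ (edgeR adjusted p = 3.25e-09). *Ptger3* responded lower in HZ than in WT, at -0.40 ± 0.058 (edgeR adjusted p = 1.23e-07). The *Ptger4* difference in KO was -0.31 ± 0.080 (edgeR adjusted p = 0.00742), and it lost its call without WT stimulated replicate 2 (adjusted p = 0.0535) or KO stimulated replicate 1 (0.0807), and in limma without a filter (0.0865). Both sets of differences share the WT libraries.

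The remaining differences between HZ and WT were small. *Adora2b* responded more in HZ by 0.19 ± 0.064 (edgeR adjusted p = 0.0144), and lost its call in DESeq2 (adjusted p = 0.0532) and without replicate 1 of unstimulated WT (0.105), stimulated WT (0.132) or unstimulated HZ (0.0864). *Adora3* responded less, at -0.17 ± 0.053 (edgeR adjusted p = 0.00948), a call lost with library totals (adjusted p = 0.171), in limma (0.217 to 0.317) and without unstimulated WT replicate 2 (0.0614), stimulated WT replicate 1 (0.0582) or unstimulated HZ replicate 2 (0.0902). *P2rx4* was lower, at -0.14 ± 0.043 (edgeR adjusted p = 0.00652), which did not pass with library totals (adjusted p = 0.223), in limma (0.214 to 0.254) or without stimulated HZ replicate 2 (0.0551). *S1pr2* did not pass in HZ at -0.25 ± 0.15 (edgeR adjusted p = 0.183), and it did without stimulated HZ replicate 2 (adjusted p = 0.0264).

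Genes with the most similar pattern over the 12 libraries were sought by Pearson's r of log2 CPM, as a description, since the points share 6 groups and the response to antigen dominates them. For *Adora2a* they were *Insyn1* (r = 0.989), *Maml2* (0.988) and *Arl5b* (0.985), and for *Adora3* *Tnfsf14* (0.998), *Sat1* (0.997) and *Ctsc* (0.997). *Adora2b* was closest to *Txnrd1* (0.997), *S1pr2* to *Uspl1* (0.984) and *P2rx7* to *Trp53inp1* (0.987). The closest genes to *Ptger3*, *Ptger4* and *P2rx4* were *Acss2* (0.976), *Itgb7* (0.890) and *Crk* (0.925). *S1pr1*, at few counts, was closest to *Noxo1* (0.930). No receptor was among the 3 closest genes of another.

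Other receptors of the same families were set beside the 9. In the S1P family, 4 of 5 genes were tested, and *S1pr5* had at most 1 count per library. *S1pr3*, which encodes a Gq- and Gi-coupled receptor, was at 1.51 and 1.43 CPM unstimulated and 10.1 and 11.0 CPM stimulated in WT, at 1.70 and 1.91 CPM unstimulated and 7.68 and 7.98 CPM stimulated in HZ and at 2.56 and 1.69 CPM unstimulated and 10.6 and 9.56 CPM stimulated in KO. It rose by log2 2.84 ± 0.21 in WT (edgeR adjusted p = 3.12e-16), 2.12 ± 0.20 in HZ (edgeR adjusted p = 1.35e-12) and 2.24 ± 0.20 in KO (edgeR adjusted p = 1.43e-13), opposite to *S1pr2*. *S1pr4* was lower by less than 2-fold after antigen in WT, at -0.77 ± 0.12 (edgeR adjusted p = 8.26e-07). Its response was -1.81 ± 0.11 in HZ (edgeR adjusted p = 8.02e-19) and -1.44 ± 0.12 in KO (edgeR adjusted p = 2.13e-14), and it was higher in unstimulated HZ than in WT by 1.18 ± 0.11 (edgeR adjusted p = 3.62e-13). *Sphk1*, which encodes a kinase that makes S1P, had 1 to 5 counts in the unstimulated libraries and 60 to 150 in the stimulated ones. Of 14 genes of S1P and lysophospholipid metabolism that were tested, *Sphk1* and *Plpp3*, a lipid phosphatase, were higher after antigen in WT and KO, and *Sphk1* in HZ. These 2, 1 and 2 of 14 in WT, HZ and KO stand beside 6.77%, 14.3% and 6.61% of all genes. None was lower by 2-fold in edgeR in any genotype, with 3 lower in WT, 7 in HZ and 3 in KO at an unadjusted p below 0.05, where 6, 4 and 4 were higher. Of all genes, 26.1%, 32.8% and 23.8% were lower and 24.9%, 34% and 23.2% higher at that unadjusted p.

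Of the prostanoid receptors, 4 were tested, and *Ptger2* had no count in any library, which does not show that its mRNA was absent. *Ptger1* was at 21.1 to 27.0 CPM in all libraries. *Ptgir*, the Gs-coupled prostacyclin receptor, was at 13.6 and 12.2 CPM unstimulated and 10.4 and 9.20 CPM stimulated in WT, at 6.80 and 7.61 CPM unstimulated and 3.14 and 2.40 CPM stimulated in HZ and at 3.63 and 3.38 CPM unstimulated and 1.80 and 1.04 CPM stimulated in KO. It was lower in KO than in WT at rest, at a log2 difference of -1.88 ± 0.18 (edgeR adjusted p = 1.2e-12) and after antigen at -2.79 ± 0.21 (edgeR adjusted p = 1.96e-15). Of 4 tested receptors for leukotrienes and platelet-activating factor, *Ptafr* and *Cysltr2* fell by at least 2-fold with antigen in all genotypes, *Ptafr* with -1.89 ± 0.23 in WT (edgeR adjusted p = 2.09e-09), -3.02 ± 0.21 in HZ (edgeR adjusted p = 5.33e-17) and -2.52 ± 0.22 in KO (edgeR adjusted p = 1.26e-13). These 2 of 4 stand beside 6.77%, 14.3% and 6.61% of all genes changed by antigen in WT, HZ and KO. *Ltb4r1*, a receptor for leukotriene B4, was lower in KO than in WT, at -1.66 ± 0.17 at rest (edgeR adjusted p = 8.84e-12).

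Among the other purine receptors, 0 of 3 further P2X genes tested in edgeR changed by 2-fold with antigen in any genotype, with 0 in WT, 1 in HZ and 1 in KO at an unadjusted p below 0.05, which 51%, 66.8% and 47% of all genes reached. Of 5 P2Y genes tested, 0 changed by 2-fold, with 1 in WT, 2 in HZ and 2 in KO at an unadjusted p below 0.05. *P2rx1* lay at 87.0 to 140.0 CPM, *P2ry1* at 66.9 to 86.4 CPM and *P2ry14* at 126 to 181 CPM over the 12 libraries. *P2ry10*, a lysophosphatidylserine receptor by function, was at 0.905 and 1.09 CPM unstimulated and 0.842 and 0.806 CPM stimulated in WT and at 7.57 and 7.36 CPM unstimulated and 5.64 and 6.22 CPM stimulated in KO, higher than in WT at rest by log2 2.90 ± 0.23 (edgeR adjusted p = 7.59e-15). In HZ against WT, 1 P2Y gene was higher and 0 lower at rest, beside 9.15% of all genes. After antigen 1 was higher and 1 lower, beside 7.89%. Between KO and HZ, 0 P2Y genes passed in either state, beside 3.36% and 5.32% of all genes. Of 9 tested genes that make, degrade or carry adenosine and ATP, 0 changed by 2-fold with antigen in WT or KO in edgeR, with 3 and 5 at an unadjusted p below 0.05. In HZ 3 of the 9 changed by 2-fold, beside 14.3% of all genes. *Slc29a2*, the nucleoside transporter ENT2, was higher in HZ by 1.23 ± 0.41 (edgeR adjusted p = 0.00744), and *Entpd1* and *Entpd3*, which degrade extracellular ATP, were lower, at -1.01 ± 0.066 (edgeR adjusted p = 2.57e-18) and -1.01 ± 0.11 (edgeR adjusted p = 1.46e-11). *Slc29a1*, the nucleoside transporter ENT1 that clears adenosine, was lower in KO than in WT, at -1.03 ± 0.062 at rest (edgeR adjusted p = 2.87e-19) and -1.13 ± 0.065 after antigen (edgeR adjusted p = 6.34e-20).

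Downstream of these receptors act RGS proteins, which switch off Gα subunits. Of 18 tested RGS, GRK and arrestin genes, 3 rose in each genotype, *Rgs1*, *Rgs2* and *Rgs16*, and 1 fell in HZ, *Grk4*, at -1.41 ± 0.33 (edgeR adjusted p = 0.000187). These 3, 4 and 3 of 18 stand beside 6.77%, 14.3% and 6.61% of all genes in WT, HZ and KO. *Rgs2* was at 113 and 116 CPM unstimulated and 370.4 and 367 CPM stimulated in WT, at 133 and 129.7 CPM unstimulated and 738 and 746 CPM stimulated in HZ and at 220.3 and 225 CPM unstimulated and 1066 and 1080.2 CPM stimulated in KO, a rise of log2 1.69 ± 0.031 in WT (edgeR adjusted p = 2.23e-40) and 2.27 ± 0.030 in KO (edgeR adjusted p = 9.03e-47). Like *Adora2a*, it rose more in KO than in WT, by 0.58 ± 0.042 (edgeR adjusted p = 3.82e-15). Unlike *Adora2a*, its largest fold rise by these levels was in HZ. Of 18 tested genes for adenylyl cyclases, PKA and CREB, *Crem*, which encodes a cyclic AMP-responsive transcription factor, rose from 23.1 and 25.5 to 57.9 and 56.7 CPM in WT and from 16.2 and 15.1 to 63.2 and 66.5 CPM in KO, with a response larger in KO by 0.82 ± 0.10 (edgeR adjusted p = 6.8e-08). In HZ *Crem* also rose, by 1.68 ± 0.077 (edgeR adjusted p = 4.74e-24). *Adcy4*, an adenylyl cyclase, was higher in WT (2.46 ± 0.81, edgeR adjusted p = 0.0111) and HZ (2.89 ± 1.02, edgeR adjusted p = 0.0123). These standard errors are larger than those of *S1pr1* in the same genotypes, so the size of the *Adcy4* rise is uncertain. *Adcy6* was lower in HZ (-1.19 ± 0.24, edgeR adjusted p = 3.83e-05). Of 19 G protein subunit genes, 1 rose in each genotype, *Gnai1*, which encodes a subunit of Gi, by 1.59 ± 0.077 in WT (edgeR adjusted p = 6.35e-23). That 1 of 19 stands beside 6.77%, 14.3% and 6.61% of all genes in WT, HZ and KO. Of 9 tested phosphodiesterase genes, 0 changed by 2-fold with antigen in edgeR in any genotype, with 4 in WT, 7 in HZ and 7 in KO at an unadjusted p below 0.05, beside 51%, 66.8% and 47% of all genes. The median log2 fold change in WT was 0.094 over the G protein genes, -0.0078 over the RGS, GRK and arrestin genes and 0.057 over the phosphodiesterases, beside -0.013 over all genes tested.

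**Figure D5:**
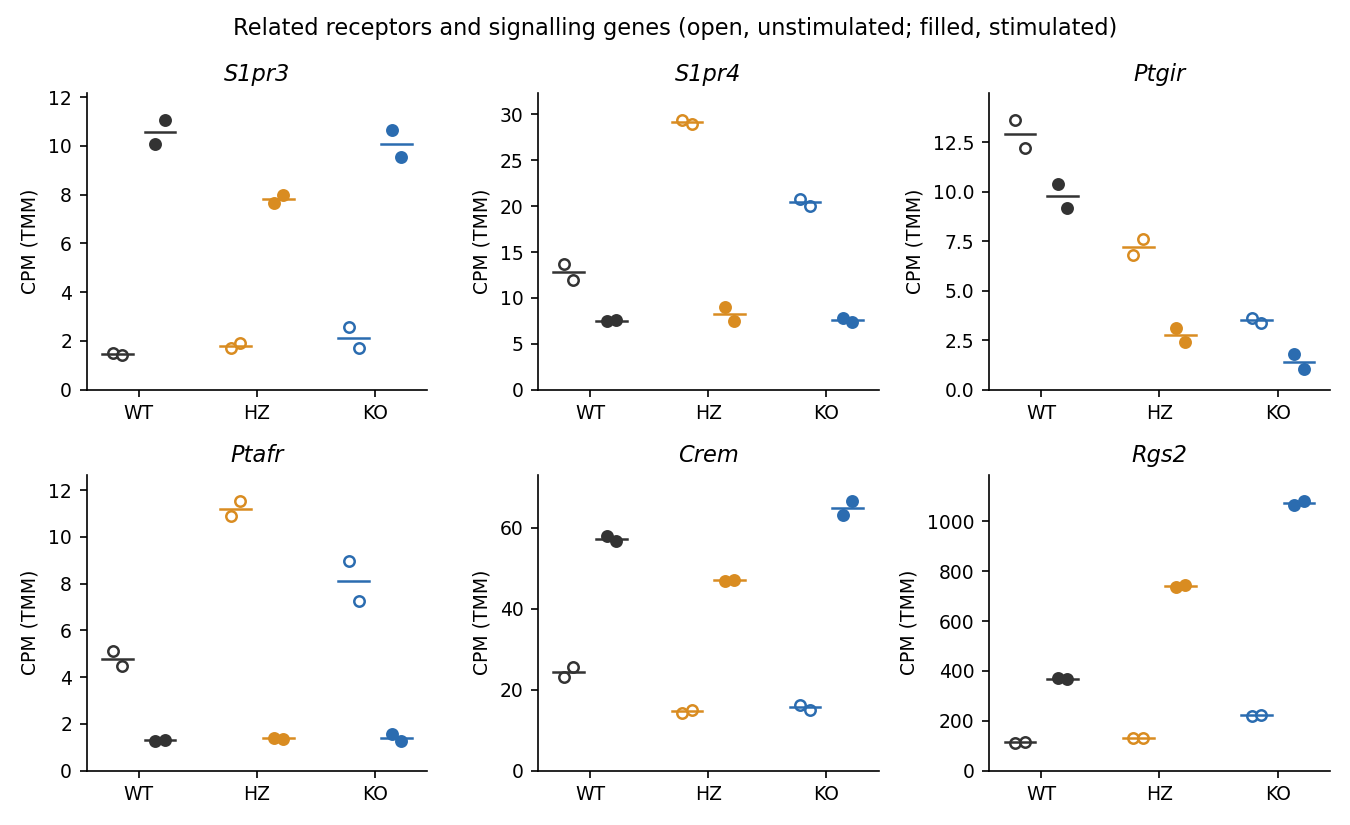
Normalised counts (CPM, TMM scaling) of 6 related genes in each library by genotype label, with open points for unstimulated and filled points for stimulated libraries and a bar at the mean of 2 libraries. *S1pr3*, *Crem* and *Rgs2* are higher and *S1pr4* and *Ptafr* lower in stimulated libraries of each genotype, and *Ptgir* decreases from WT to HZ to KO.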

How the data were processed

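RNA was sequenced from 12 libraries of cultured BMMCs. The submitters' processing notes name fastp, HISAT2, HTSeq and GRCm39, and the versions, annotation and strand setting are not given in the sources used here. The authors deposited raw read counts per gene, used for all tests, and FPKM values, used for levels between genes and in limma.

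Groups came from the labels. Counts of 12208 genes past filterByExpr were fitted by group in edgeR 4.0.16 (R 4.3.3) with TMM scaling and the quasi-likelihood test, and p-values were adjusted by Benjamini-Hochberg over all of them. Fold changes are log2 ± SE, with a prior count of 0.125. With 2 libraries per group, the residual degrees of freedom were 6, and 38.9 were added by moderation across genes. Changed genes needed an adjusted p below 0.05 and 2-fold, or 1.5-fold or 0.66-fold between stimulated genotypes, or the p alone for differences of responses. FPKM carry no TMM factor. TMM factors lay at 0.902 to 0.924 after antigen and at 1.08 to 1.12 without it. At this depth, the precision of *S1pr1* was limited by its few counts, and the intervals given for single genes include the spread between libraries. Libraries of a group differed by more than sampling noise (chi-square per degree of freedom 2.94 to 5.16).

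The receptors and gene lists were chosen with earlier results of these data known. Named from related lists were at most 5 genes per list and comparison past the threshold with 1 CPM or more in the higher group, chosen by size of change, and receptors of the same families were given by range. Likeness was taken over the 12 libraries among genes of 1 CPM or more, 3 per receptor. On simulated counts of 12234 genes, edgeR called 37 of 67 genes changed by 0.3 on the log2 scale in the WT response. It called 52 of 67 changed by 0.6, 57 of 66 changed by 1.5 and 9 of 12034 unchanged genes. Few genes were changed there, in random directions, whereas 45.3% of all genes passed the adjusted p in the real WT response. The simulated calls therefore do not measure errors under the scaling of these data.

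Alternatives were DESeq2 1.42.0, limma 3.58.1 on log2(FPKM + 1) or log2(FPKM + 0.1), other scalings and filters, the replicate block, the compared groups alone and each library left out. Promoters were RefSeq's (GRCm38.p6).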

Additional observations from a re-analysis of the deposited data

Results flagged for a closer look

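The response to antigen differed between genotypes, by a test of the difference itself, in 9 cases among the receptors. These were 3 of 9 receptors for KO against WT, beside 9.27% of all genes, and 6 of 9 for HZ against WT, beside 38.5%. For KO against WT these were *Adora2a* with a log2 difference of 0.50 ± 0.054 (SE, edgeR adjusted p = 1.12e-09), *P2rx7* with 0.24 ± 0.042 (edgeR adjusted p = 4.36e-05) and *Ptger4* with -0.31 ± 0.080 (edgeR adjusted p = 0.00742). For HZ against WT they were *Adora2a* with 0.21 ± 0.055 (edgeR adjusted p = 0.00187), *Adora2b* with 0.19 ± 0.064 (edgeR adjusted p = 0.0144) and *Adora3* with -0.17 ± 0.053 (edgeR adjusted p = 0.00948). The other three for HZ were *Ptger3* with -0.40 ± 0.058 (edgeR adjusted p = 1.23e-07), *P2rx4* with -0.14 ± 0.043 (edgeR adjusted p = 0.00652) and *P2rx7* with -0.34 ± 0.042 (edgeR adjusted p = 3.25e-09). *P2rx7* therefore differed from WT upward in KO and downward in HZ, with the WT libraries shared between both. As given above, the calls of *Ptger4* in KO and of *Adora2b*, *Adora3* and *P2rx4* in HZ were lost under some alternatives.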

How the results depend on the processing

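Over 99 log2 fold changes (9 receptors in 11 comparisons), 918 values from alternatives that kept all libraries had the direction and call reported, 31 lost the call, 25 gained one and 27 turned. With single libraries left out, 396 had both, 42 lost the call, 6 gained one and 24 turned. Scaling by library totals gave 1 receptor higher and 1 lower in WT, 1 lower in KO and 2 lower in HZ minus WT. Limma gave 1 higher in WT in all of its 3 settings, 1 lower in HZ and 2 lower in HZ minus WT, with a pseudocount of 0.1 also 1 lower in WT and in KO, and 0 lower in KO minus WT with that pseudocount or without a filter. A minimum of 10 counts, which drops *S1pr1*, and an adjusted p below 0.01 each gave 1 lower in HZ, and the latter and DESeq2 gave 1 higher in HZ minus WT. Without a fold threshold, higher and lower receptors numbered 4 and 3 in WT, 3 and 5 in HZ, 3 and 2 in KO, 3 and 3 in resting KO against WT and KO against HZ, 3 and 2 in resting HZ against WT, and after antigen 4 and 4 in KO against WT, 1 and 4 in HZ against WT and 4 and 0 in KO against HZ. With 1 library left out, the 2 lower receptors of the HZ response were never both kept, with *S1pr2* at -1.25 to -0.88 and *S1pr1* at -2.24 to -1.27. Calls also varied for *Ptger4* in KO minus WT (-0.37 to -0.26), *Adora2a* in stimulated KO against WT (0.53 to 0.59) and *Adora2b* in HZ minus WT (0.14 to 0.25).

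Values that turned under library totals were *Ptger3* in WT (-0.21) and KO (-0.25), *Ptger4* in WT (-0.18), HZ (-0.13) and HZ minus WT (0.047), and *P2rx7* in resting HZ against WT (-0.016). In limma with a pseudocount of 1, filtered or not, they were -0.21, -0.25, -0.17, -0.12, 0.046 and -0.015 in this order, and with 0.1 -0.21, -0.25, -0.18, -0.13, 0.047 and -0.015. *Adora2b* in KO minus WT was -0.00069 in DESeq2, -0.00092 with its size factors and -0.0058 with the compared groups alone. Turns on leaving out 1 library had ranges of -1.18 to 0.59 for *S1pr1* in WT, -0.26 to 0.16 in resting KO against HZ, -0.82 to 0.33 in stimulated HZ against WT and -1.42 to 0.33 in KO minus WT, -0.077 to 0.0079 for *Ptger4* in resting KO against WT, -0.10 to 0.0047 in stimulated KO against HZ and -0.085 to 0.019 in HZ minus WT. They were -0.012 to 0.057 for *P2rx4* in resting KO against HZ, -0.093 to 0.27 for *S1pr2* in stimulated KO against HZ and -0.080 to 0.17 in KO minus WT, and -0.056 to 0.059 for *Adora2b* and -0.064 to 0.013 for *Adora3* in KO minus WT. None of these had passed as reported except *Ptger3* in WT, and the cause was not tested.

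Deviations of same-numbered libraries correlated at -0.054 to 0.10 over 8383 genes between pairs of groups. Between the unstimulated and stimulated group of a genotype the values were -0.018 in WT, 0.10 in HZ and 0.011 in KO. Whether replicate numbers pair libraries is not shown by this, since paired cultures that differ little would also give low values. With the replicate block, genes changed by antigen in WT numbered 455 higher and 367 lower, against 453 and 373 without it, and among the receptors *Ptger4* in WT gained a call (adjusted p = 0.0497). The block changed no other call among the receptors.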

Other observations

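Several genes of the related signalling lists passed the thresholds between genotypes that none of the 9 receptors passed. Of all genes tested, 7.51% passed in resting KO against WT, 9.15% in resting HZ against WT and 12.7% in stimulated KO against WT. *Gnaq*, the α subunit of Gq, was lower than in WT at rest, at a log2 difference of -1.95 ± 0.17 in KO (edgeR adjusted p = 5.44e-14) and -1.30 ± 0.16 in HZ (edgeR adjusted p = 1.31e-09). Its level was 13.3 and 13.7 CPM unstimulated and 15.3 and 16.4 CPM stimulated in WT and 3.09 and 3.92 CPM unstimulated and 3.56 and 4.80 CPM stimulated in KO. Of 19 G protein subunit genes, 1 was higher and 2 lower in resting KO, and 1 higher and 1 lower in resting HZ. *Gng12* was the other one past the resting threshold in both, at 1.16 ± 0.072 in KO (edgeR adjusted p = 1.22e-18) and 1.54 ± 0.071 in HZ (edgeR adjusted p = 1.36e-23). Among the phosphodiesterases, which degrade cyclic nucleotides, *Pde7b* was higher in unstimulated KO by 2.15 ± 0.35 (edgeR adjusted p = 1.12e-06) and *Pde8a* lower, at -1.84 ± 0.15 (edgeR adjusted p = 3.29e-14). *Rgs13*, known to restrain mast cell degranulation, was at 6.52 and 6.97 CPM unstimulated and 8.35 and 11.4 CPM stimulated in WT and at 15.5 and 15.0 CPM unstimulated and 21.1 and 19.5 CPM stimulated in KO, and higher in KO at rest by 1.18 ± 0.13 (edgeR adjusted p = 2.57e-10). *Rgs16* was lower in KO at rest, at -1.64 ± 0.25 (edgeR adjusted p = 3.61e-07) although it rose with antigen in each genotype. *Sgpp1*, which removes the phosphate from S1P, was lower in stimulated KO than in WT, at -1.74 ± 0.23 (edgeR adjusted p = 2.33e-08), and *Mfsd2b*, an S1P exporter, was higher by 1.80 ± 0.39 (edgeR adjusted p = 0.000188). *F13a1*, which carries most of the macrophage and monocyte markers' summed level in KO and HZ, was also higher there than in WT. Its part in these differences was not tested.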
